A study of Mus musculus with 7 samples.

Results

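Of the 18951 gene symbols in the table of ovulated mouse oocytes, 51 encode redox and glutathione enzymes. They were picked by name: glutathione peroxidases (Gpx), peroxiredoxins (Prdx), superoxide dismutases (Sod), thioredoxins (Txn) and their reductases (Txnrd), glutathione S-transferases (Gsta, Gstm, Gstp, Gstt, Gsto, Gstz and Mgst, each followed by a number), and Cat, Gsr, Nqo1, Nqo2, Hmox1, Hmox2 and Srxn1. The choice used no measured value, but it was made with earlier results of these data known. Gpx2 and Gstp3 are not analysed here, and Prdx6b, whose symbol ends in a letter, lies outside the rule. RNA came from 3 wild-type (WT) pools and 4 pools of oocytes that lacked Nlrp2, a maternal effect gene of the NLR family. All pools came from C57BL/6 females of 4 weeks. Each pool combined about 150 oocytes from 3 to 4 mice of 1 genotype, taken as cumulus-oocyte complexes from the ampulla of the oviduct and freed of their cumulus cells by hyaluronidase (3 mg/ml, 2 minutes). The labels give the null genotype only by name, without the exons removed. Because a pool mixes animals, a value is the level in the mixture and says nothing of the spread between females. The comparison asks whether oocytes without Nlrp2 hold other amounts of these mRNAs.

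Superoxide dismutases turn superoxide into hydrogen peroxide, which catalase, glutathione peroxidases and peroxiredoxins then remove. Peroxiredoxins are reduced again by thioredoxin, and thioredoxin by the NADPH-dependent thioredoxin reductases, while glutathione reductase restores the glutathione that peroxidases oxidize. Glutathione S-transferases couple glutathione to reactive molecules, and many genes of the set respond to the transcription factor NRF2, which binds antioxidant response elements. The egg is known for a large store of glutathione, used after fertilization to unpack the sperm nucleus.

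Between 71073973 and 96330083 reads per pool stood behind the table, whose values are normalized counts, that is reads divided by a size factor per pool. Nlrp2 was at 15527, 20130 and 16792 normalized counts in WT pools 1 to 3, and at 107, 8.19, 1.96 and 63.8 in null pools 1 to 4 (log2 fold change -9.70 in limma). The null pools were thus far below every WT pool, as their labels say. All 14 oocyte markers (such as Zp3 and Gdf9) were present in every pool, and their mean on the log2 scale lay between 14.84 and 14.97. Markers of cumulus and granulosa cells, which surround the oocyte, were also present: 27 of 30 were above 0 in every pool, while Amh, Amhr2 and Areg were at 0 in at least 1 pool. The summed marker level was 128340 to 155900 in WT and 134900 to 161680 in null pools. The median of the markers was 603, so the sum rests mostly on the higher ones. Averaged on the log2 scale, the 28 of these markers that were tested gave 9.68, 8.67 and 8.79 for WT pools 1 to 3. Null pools 1 to 4 had 9.16, 9.30, 9.84 and 10.47, and null 4, null 3 and WT 1 were highest. Genotypes differed by 0.65 (exact permutation test, two-sided, p = 0.229; the 35 splits of the pools allow 0.0286 at best). The difference was 0.39 without null 4 and 0.18 without null 3 and null 4. Single markers did not all follow the mean. Star was highest in null 4 (1894), WT 1 (1105) and null 3 (767). Cyp19a1 was lowest in the same pools (3431, 3601 and 3975). Null 4 also stood apart in other markers: its mean log2 level was 9.07 for stroma, theca and endothelium (4.23 to 6.46 in the other pools, with 4 of 8 genes above 0 in every pool and Col1a1, Col1a2, Col3a1 and Acta2 at 0 in at least 1). For oviduct epithelium it was 7.43 (5.32 to 5.89 in the others; 7 of 12 genes above 0 in every pool, not Pax8, Foxj1, Krt7, Muc1 or Wt1). For stroma, theca and endothelium, WT 1 (6.46) and null 3 (5.87) came next after null 4. The same 3 pools thus led in this mean and in the cumulus marker mean. Markers of blood and immune cells lay between 4.77 and 6.73, with 5 of 10 above 0 in every pool. The part of such cells in the results was not tested apart from fits with the cumulus marker mean. The labels number the libraries in a lower range (WT 1, WT 2, null 1 and null 2) and a higher one (WT 3, null 3 and null 4). In such bulk RNA, fewer cells of a type and less RNA per cell cannot be told apart.

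A small number of antioxidant mRNAs made up most of the total. Sod1, the cytosolic superoxide dismutase, and Prdx1, a cytosolic peroxiredoxin, together held 40.9% of the members' normalized counts over all pools, with 38.0% to 45.7% in single pools. With Gsta4, a glutathione transferase for lipid aldehydes, and Prdx2, a second cytosolic peroxiredoxin, the share was 58.2%. The 12 highest members held 90.0%. All members together made up 0.0848% (WT 2) to 0.11% (WT 1) of a pool's total. By mean normalized count, 2 members were above 10000, 11 lay between 1000 and 10000, 16 between 100 and 1000, 15 between 10 and 100, and 7 below 10.

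Levels of different genes were compared as normalized counts per kilobase (kb) of annotated exon. The length joins all annotated protein-coding exons, not those of the mRNA present, and the RNA had been amplified, so the order is approximate. On this scale Sod1 stood at 25893 ± 5786 (SD, n = 7 pools), far above every other member. Its distance from Prdx1 depends on the lengths (641 and 2669 bases), as their mean normalized counts were closer (16597 and 14163). Prdx1 (5306 ± 370) and Gsta4 (5236 ± 1107) came next and differed by less than their spread, and Prdx2 followed at 3177 ± 256. Gpx6 (2236 ± 327) and Gpx3 (2188 ± 229), a pair of glutathione peroxidases, were likewise within their spread of each other. Gpx3 is secreted, and mouse Gpx6 is a relative without selenium. Gstm5 (1842.5 ± 369), the cytosolic thioredoxin Txn1 (1746 ± 381), the microsomal transferase Mgst3 (1574 ± 297) and the cytosolic thioredoxin reductase Txnrd1 (1242 ± 228) formed a run of neighbours whose spreads overlapped. The best known peroxidase genes were low in comparison: Gpx1, the classical cytosolic selenoenzyme, was at 182 ± 80.2 and Gpx4, which repairs lipid peroxides, at 34.6 ± 17.7 per kb.

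**Figure D1:**
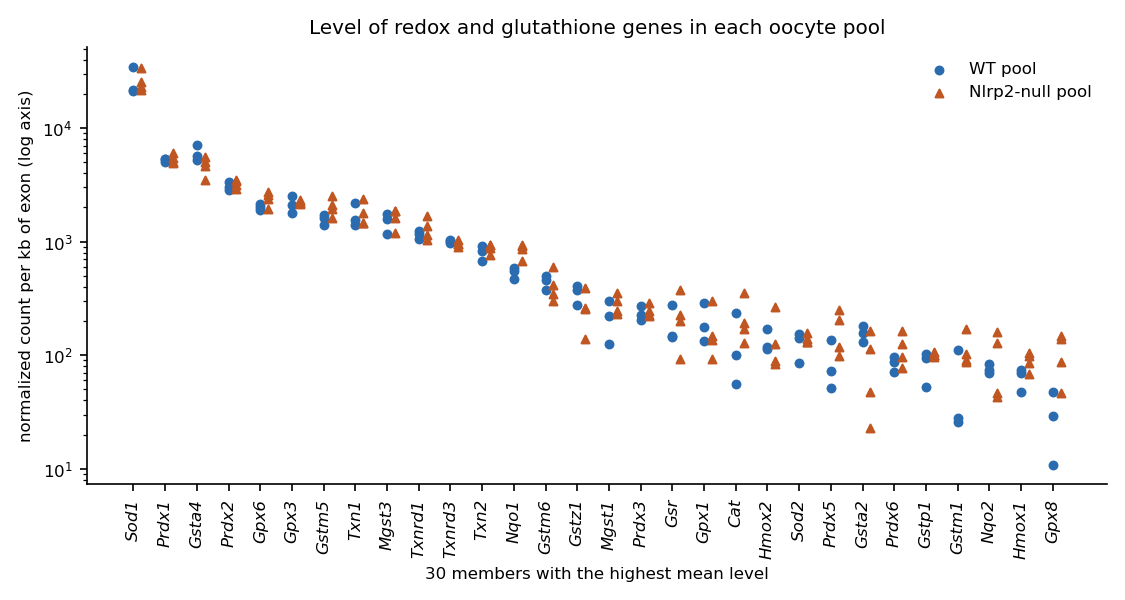
Normalized count per kb of exon (log axis) for the 30 members with the highest mean, 1 point per pool (circles, 3 WT pools; triangles, 4 Nlrp2-null pools). Sod1 lies above every other member in each pool, and Nqo1 is the gene shown whose WT and null points do not overlap.

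The low value of Gpx4 has a limit that can be read from the annotation. Of all 50-base stretches in its protein-coding transcripts, 51.4% also occur in other annotated genes, mainly the processed pseudogene Gpx4-ps2. Such reads can be dropped or assigned elsewhere, depending on the counting rule, which the sources used here do not give. The same holds for Gstp1 (51.0%) and Gstp2 (50.4%), which share sequence with each other, for Gsta1 (89.7%) and Gsta2 (47.4%), and for Sod1, of whose stretches 23.1% occur in the pseudogene Gm8566. In all, 13 members share at least 5% of their stretches with genes elsewhere in the genome, and 26 share none with any other annotated gene. Exons of 8 members overlap another gene. The levels of these genes are therefore uncertain, and Gpx1, with no shared stretch, is not among them.

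None of the members passed the limma test between genotypes, and 1, Nqo1, passed in DESeq2. The fit covered 15071 genes whose normalized counts averaged 10 or more, of which 44 were members, and used limma on log2(normalized count + 1) with a Benjamini-Hochberg adjusted p under 0.05 as the threshold. It called 0.0664% of all genes (0.0531% higher and 0.0133% lower in null pools) and 0 members, and edgeR on recovered whole reads called 0.0464% and 0 members. DESeq2 called 1.54% of genes with an adjusted p (0.885% higher in null pools) and 1 of the 38 such members, Nqo1. At an unadjusted p under 0.05 limma had 5 of 44 members (11.4%) against 10.2% of all genes, a share near the background. These were Nqo1, Gpx8, Gstm1 and Gstm5 with higher values in null pools (5.28% of all genes) and Gsta4 with lower values (4.93%). Groups that did not overlap were found for 1 of 44 members (2.27%), against 9.91% of all genes tested (4.74% with null pools higher and 5.16% with null pools lower).

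More members had positive than negative fold changes. In 34 of 44 (77.3%) the log2 fold change, null minus WT, was above 0, with a median of 0.21. Among all genes tested 50.7% were above 0, with a median of 0.01. The count was 25 of 44 with the cumulus marker mean in the model (median 0.03) and 30 of 44 without null 3 and null 4 (median 0.12). It was 27 of 44 without WT 2 (median 0.05) and also without WT 3 (median 0.15). With equal medians of all genes in every pool it was 31 of 44, and 37 of 44 in edgeR and in DESeq2. The share of all genes above 0 was 43.4% with equal medians, 53.1% in edgeR and 52.7% in DESeq2. In the fits with the cumulus marker mean or with pools left out, it was 49.3% to 51.3%. Within the lower range of library numbers and within the higher range, the log2 differences had opposite signs in 18 of the 44 members, were above 0 in both ranges in 19 and below 0 in both in 7. Of the 13 members with a mean of at least 1000, 11 were above 0 (84.6%, median 0.08), against 43.0% of all such genes (median -0.03). Of the 31 under 1000, 23 were above 0 (74.2%, median 0.39), against 56.4% of all such genes (median 0.10).

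**Figure D2:**
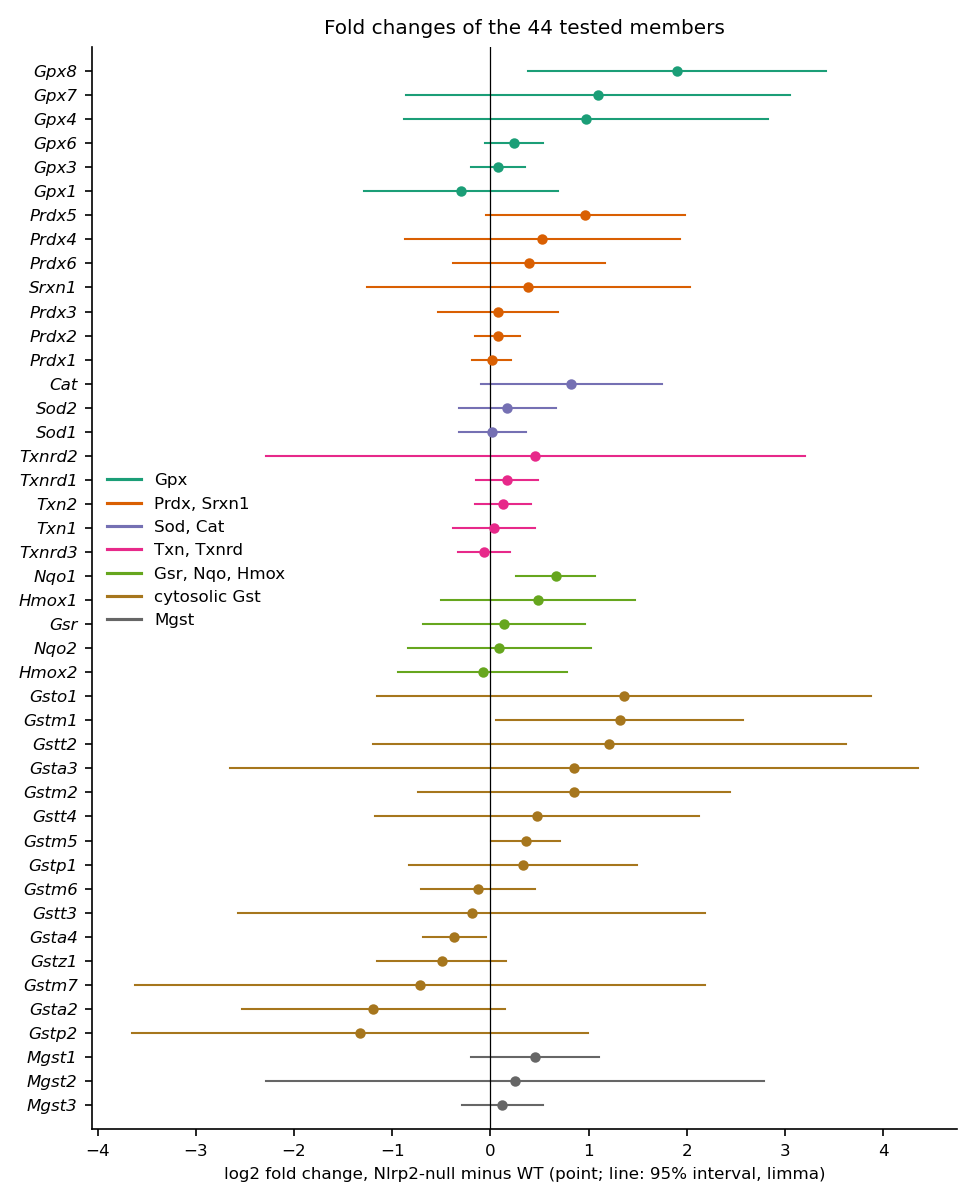
Log2 fold change, Nlrp2-null minus WT, of the 44 tested members, coloured by enzyme class; points are limma estimates over 3 WT and 4 null pools and lines their 95% intervals. Intervals of Nqo1, Gpx8, Gstm1 and Gstm5 lie above 0 and that of Gsta4 below 0, before any adjustment for the number of genes.

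Nqo1, which encodes the enzyme that reduces quinones to hydroquinones with NAD(P)H, was the tested member whose groups did not overlap. The gene lies on the minus strand of chromosome 8, from 107388225 to 107403206 (GRCm38). WT pools 1 to 3 held 726, 852 and 908 normalized counts, and null pools 1 to 4 held 1332, 1452, 1055 and 1431.5. The lowest null pool, null 3, was above the highest WT pool, WT 3. The means were 828.5 ± 93.3 (SD, n = 3) and 1317.5 ± 183 (SD, n = 4), and the fitted fold was 1.58 (95% interval 1.20 to 2.09, log2 fold change 0.66, SE 0.189). Neither limma (adjusted p = 0.242) nor edgeR (adjusted p = 0.286) called it, and in DESeq2 the adjusted p of 0.0497 was just inside the threshold. The log2 difference was 0.82 within the lower range of library numbers (2 WT and 2 null pools) and 0.44 within the higher (1 WT and 2 null pools). The 18 alternatives gave log2 fold changes from 0.57 to 0.77 and adjusted p from 0.0497 to 0.624 (limma, edgeR or DESeq2). Between 689 and 1418 reads per pool stood behind these values, and no 50-base stretch of Nqo1 occurs in another annotated gene.

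Nqo1 is a textbook target of NRF2, and so are Prdx1 and Txnrd1. The core of the antioxidant response element, TGACNNNGC, was searched on both strands in windows from 250 bases before to 50 bases after annotated starts (RefSeq, GRCm38.p6). The windows are shown because the Nqo1 groups did not overlap and those of Prdx1 and Txnrd1 did. Capitals mark the match, here read on the opposite strand, in these windows printed 5′ to 3′ on the strand of each gene (Nqo1 chr8:107403156-107403455, minus strand; Prdx1 chr4:116685349-116685648, plus strand; Txnrd1 chr10:82858956-82859255, plus strand).
Nqo1: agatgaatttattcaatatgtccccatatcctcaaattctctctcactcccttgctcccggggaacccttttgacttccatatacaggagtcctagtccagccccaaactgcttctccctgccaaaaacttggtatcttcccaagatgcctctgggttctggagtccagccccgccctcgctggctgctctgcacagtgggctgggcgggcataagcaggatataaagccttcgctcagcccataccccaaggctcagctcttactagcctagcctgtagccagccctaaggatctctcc
Prdx1: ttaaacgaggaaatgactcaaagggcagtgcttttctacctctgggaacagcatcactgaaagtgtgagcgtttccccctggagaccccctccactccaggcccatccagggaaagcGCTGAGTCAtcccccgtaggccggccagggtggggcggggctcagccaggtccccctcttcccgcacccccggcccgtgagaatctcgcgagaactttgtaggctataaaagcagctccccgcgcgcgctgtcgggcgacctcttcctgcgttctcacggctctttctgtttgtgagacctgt
Txnrd1: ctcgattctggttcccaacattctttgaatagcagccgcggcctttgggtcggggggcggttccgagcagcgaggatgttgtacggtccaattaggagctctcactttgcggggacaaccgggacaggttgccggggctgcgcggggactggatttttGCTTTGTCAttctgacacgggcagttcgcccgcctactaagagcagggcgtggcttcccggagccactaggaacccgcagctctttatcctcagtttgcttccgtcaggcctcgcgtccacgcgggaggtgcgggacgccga
The letters were not found in the Nqo1 window. Sites more than 250 bases before a start were not searched, so this does not show that Nqo1 lacks the element. The match began 133 bases before the start of Prdx1 and 92 bases before 1 of the starts of Txnrd1, whose other windows had no match. Of the members 45 had a window in RefSeq's table, and 8 of them had a match: Gsta3, Gstm5, Gstm7, Mgst1, Prdx1, Sod1, Srxn1 and Txnrd1. That is 12.9% of 62 member windows, against 12.4% of all 32851 windows of this length. Whether a match goes with a difference between genotypes was not tested.

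The other quinone and glutathione reductases did not share the pattern of Nqo1 across pools. Nqo2, a quinone reductase that uses other cofactors, stood at 279, 297 and 338 in WT pools and at 173, 186, 651 and 520 in null pools. Null 1 and null 2 lay below every WT pool and null 3 and null 4 above (log2 fold change 0.09, 95% interval -0.84 to 1.02). The log2 differences within ranges were opposite, -0.68 in the lower and 0.78 in the higher range of library numbers. Gsr, the glutathione reductase, was highest in null 1 (999) and WT 1 (746) and lowest in null 4 (249), with 387 and 396 in WT 2 and WT 3 and 539 and 608 in null 2 and null 3. The null range enclosed the WT range (log2 fold change 0.14, 95% interval -0.69 to 0.96). Of the heme oxygenases, which break down heme, the inducible Hmox1 was low throughout, at 108.5, 117 and 74.9 in WT and at 107, 165, 154 and 134 in null pools. Null 1 fell within the WT range and the other 3 null pools lay above it (log2 fold change 0.49, SE 0.466, adjusted p = 0.767 in limma). Hmox2, the constitutive enzyme, ranged from 250 to 377 in WT and from 185 to 585 in null pools. Nqo2 and Hmox2 have exons that overlap genes on the opposite strand (Serpinb6a and Cdip1).

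Glutathione peroxidase mRNAs were led by Gpx3 and Gpx6. Gpx3 stood at 4582, 3217 and 3807 normalized counts in WT and at 4063, 3989, 3904.5 and 4203 in null pools. The null pools all fell inside the WT range (log2 fold change 0.08, 95% interval -0.20 to 0.35). Gpx6 was at 2680, 2562 and 2868 in WT and at 3416, 3671, 3201 and 2576 in null pools, so that null 4 overlapped WT and the other 3 null pools lay above it. Its log2 fold change was 0.24 (SE 0.14, adjusted p = 0.601 in limma), with 0.43 in the lower and 0.0020 in the higher range of library numbers.

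Gpx8, a membrane peroxidase of the endoplasmic reticulum, had the largest fitted fold change of the members but low counts. It was at 30.5, 11.4 and 49.4 in WT and at 48.8, 91.1, 144 and 155 in null pools, from 12 to 148 reads. Null 1 lay just under WT 3 and the other null pools above all WT pools. The log2 fold change was 1.90 (95% interval 0.38 to 3.42, SE 0.717), with an adjusted p of 0.383 in limma. Within the ranges of library numbers it was 1.78 and 1.58. Gpx8 was highest in null 4 and null 3, where the cumulus marker mean was also highest. WT 1, next in that mean, was at 30.5, below null 1 and null 2. With the cumulus marker mean in the model the log2 fold change of Gpx8 was 1.33, and a cause was not tested.

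Its relative Gpx7, also of the endoplasmic reticulum, scattered widely, at 103, 43.7 and 5.76 in WT and at 32.5, 55.3, 192 and 55.5 in null pools. Its fold change had a 95% interval of -0.86 to 3.05. Gpx1 stood at 310, 188 and 144 in WT and at 99.7, 158, 146 and 320 in null pools, so that the highest value of each group was about the same (log2 fold change -0.30, 95% interval -1.29 to 0.69). Gpx4, named here after its values were seen, was at 76.9, 29.5 and 5.76 in WT and at 39.0, 51.2, 47.1 and 58.6 in null pools, and all null pools lay inside the WT range. Gpx5, an epididymal gene, had between 0 and 3 reads per pool.

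The abundant peroxiredoxins were even across pools. Prdx1 stood at 13553, 14397 and 14208 in WT and at 16030, 13361, 13084 and 14506 in null pools, and the highest pool was 1.23 times the lowest. Its log2 fold change was 0.02, with a 95% interval of -0.18 to 0.21. Prdx2 was at 6084.5, 5663.5 and 6727 in WT and at 5865, 6781, 6264 and 7025.5 in null pools (log2 fold change 0.07, 95% interval -0.16 to 0.31). The mitochondrial Prdx3 ranged from 299 to 429 over the 7 pools (0.08, 95% interval -0.54 to 0.69). These 3 genes had overlapping groups. Prdx1 shares 8.99% of its stretches with processed pseudogenes. Exons of Prdx2 overlap Junb and Rnaseh2a on the opposite strand, and 18.2% of its stretches are shared with other genes.

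The remaining peroxiredoxins were lower and less even, all with positive fold changes that did not pass. Prdx5, which acts in mitochondria and peroxisomes, was at 197, 105 and 74.9 in WT and at 170, 296, 365 and 143 in null pools. Null 2 and null 3 lay above WT 1, and null 1 and null 4 between WT 1 and WT 2 (log2 fold change 0.96, SE 0.478, adjusted p = 0.515 in limma; 0.64 and 1.60 within the lower and the higher range). An exon of Prdx5 overlaps Trmt112 on the opposite strand, and 24.2% of its stretches are shared with that gene. Prdx6, a peroxidase with phospholipase activity, ranged from 179 to 242 in WT and from 193 to 407 in null pools (0.39, SE 0.365). Prdx4, the secretory pathway member on chromosome X, ranged from 26.3 to 78.2 in WT and from 42.3 to 123 in null pools (0.53, SE 0.658). Without WT 1, its lowest pool, the log2 fold change of Prdx4 was 0.0635. Srxn1, the sulfiredoxin that repairs overoxidized peroxiredoxins, ranged from 32.3 to 194 and from 31.4 to 340.

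Sod1 split the pools, but not by genotype. It was at 22170 in WT 1 and 21583 in null 1, and between 13596 and 16156 in the other 5 pools. In full, WT 2 and WT 3 held 13596 and 13945, and null 2 to null 4 held 14815, 13917 and 16156. The genotype means were 16570 ± 4853 and 16618 ± 3436, a log2 fold change of 0.02 (95% interval -0.32 to 0.37). The mitochondrial Sod2 was at 512, 855 and 920 in WT and at 787, 781, 831 and 935 in null pools, with WT 1 lowest (0.17, 95% interval -0.32 to 0.67). Extracellular Sod3 had 0 reads in each WT pool and in null 1 and null 2. It had 5 and 19 reads in null 3 and null 4, where the cumulus marker mean was also highest. WT 1, next in that mean, had 0 reads, and a link was not tested. A count of 0 allows up to 3 reads, for counting error only.

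Catalase (Cat), the peroxisomal enzyme that breaks down hydrogen peroxide, stood at 616, 145 and 263 in WT and at 444, 332, 913 and 499 in null pools. Null 3 was highest and WT 1 second, and the groups overlapped. The log2 fold change was 0.82 (95% interval -0.10 to 1.75, adjusted p = 0.551 in limma), with 0.36 in the lower and 1.35 in the higher range of library numbers. With the cumulus marker mean in the model it was 0.23, and it was 0.34 without WT 2 and 1.375 without WT 1.

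**Figure D3:**
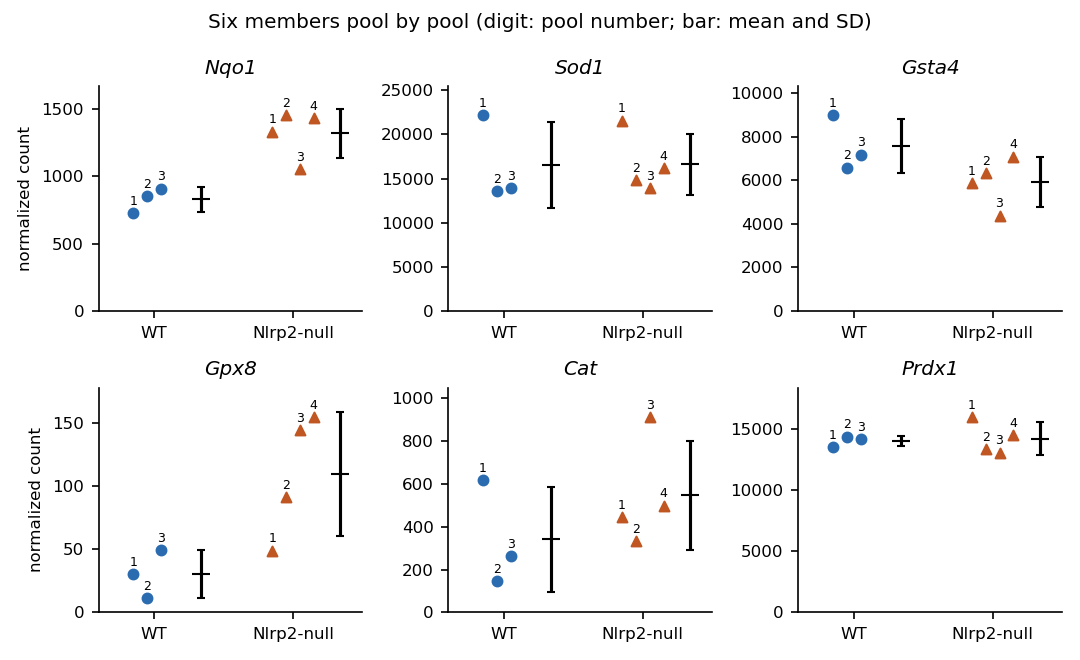
Normalized counts of Nqo1, Sod1, Gsta4, Gpx8, Cat and Prdx1 in each pool (circles, WT; triangles, Nlrp2-null; digits, pool number; bars, group mean ± SD; all axes start at 0). The Nqo1 groups do not overlap (highest WT pool 908, lowest null pool 1055), whereas Sod1 is highest in WT 1 and null 1.

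No thioredoxin gene passed the test. Txnrd1 was at 4301, 5016 and 4740 in WT and at 6875.5, 5625, 4204 and 4653 in null pools. Null 1 and null 2 lay above WT and null 3 below it (log2 fold change 0.17, 95% interval -0.15 to 0.48), and the within-range differences were 0.42 and -0.10. The mitochondrial thioredoxin Txn2 was at 3823, 2849 and 3504 in WT and at 3230, 3684.5, 3911 and 3957 in null pools (0.13, 95% interval -0.15 to 0.41). Txnrd3, a reductase that also acts on glutathione and is known from the testis, was the most even member, at 2738 to 2951 in WT and at 2563 to 2917.5 in null pools (-0.06, 95% interval -0.33 to 0.20). Txn1 ranged from 1484 to 2289 in WT and from 1536 to 2477 in null pools. The mitochondrial reductase Txnrd2 was low, with 1 to 52 reads per pool.

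Cytosolic glutathione S-transferases had fold changes of both signs. Of 15 tested members 8 had positive and 7 negative fold changes, and none passed in limma, edgeR or DESeq2. Gsta4 was at 8979, 6584 and 7179 in WT and at 5878, 6319, 4375 and 7088 in null pools. Null 1 to null 3 lay below all WT pools, and null 4 lay between WT 2 and WT 3. The means were 7581 ± 1247 and 5915 ± 1142, a log2 fold change of -0.37 (95% interval -0.69 to -0.05, SE 0.151, adjusted p = 0.427 in limma). It was -0.34 and -0.37 within the lower and the higher range of library numbers, -0.24 without WT 1 and -0.23 without null 3.

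Gstm5, a mu-class transferase known from brain and testis, was at 1719, 1504 and 1815 in WT and at 2072, 1725.5, 2238 and 2662 in null pools. Null 2 fell within the WT range and the other null pools lay above it. The log2 fold change was 0.36 (SE 0.165, adjusted p = 0.479 in limma), with 0.23 and 0.43 within the ranges. An exon of Gstm5 overlaps the antisense gene 4933431E20Rik, and without a stated strand setting reads of both cannot be told apart. Gstm1, a mu-class transferase abundant in liver, was at 155, 36.1 and 38.7 in WT and at 122, 142, 236 and 128 in null pools. WT 1 lay inside the null range and the other WT pools below it (1.32, SE 0.592, adjusted p = 0.473 in limma; 0.81 and 2.14 within the ranges). Of its stretches 19.9% occur in other genes. WT 1, the WT pool with high Gstm1, also had the highest cumulus marker mean of the WT pools, and with that mean in the model the log2 fold change was 0.78.

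Gstz1, the zeta-class enzyme of tyrosine breakdown, was at 883, 591 and 799 in WT and at 552, 562, 299 and 843 in the null group (log2 fold change -0.50, SE 0.308, adjusted p = 0.622 in limma). Null 1 to null 3 lay below WT and null 4 inside its range, and without null 3 the log2 fold change was -0.22. Gstz1 has an exon that overlaps Pomt2 on the opposite strand. The other tested transferases had mean normalized counts from 18.3 (Gstp2) to 550 (Gstm6), and log2 fold changes from -1.33 (Gstp2) to 1.36 (Gsto1). Gstm7 and Gstt3 were negative in limma (-0.72 and -0.19) and positive in edgeR on recovered reads (0.60 and 0.59). Gsto2, an omega-class gene below the minimum for testing, is named after its values were seen: it had 7, 25 and 19 reads in WT pools and 0, 4, 0 and 0 reads in null pools. Every null pool was below every WT pool, but the share of untested genes without overlap was not taken. Gsta1, Gstm3, Gstm4 and Gstt1 had at most 12 reads in any pool.

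Among microsomal transferases, membrane enzymes of glutathione and eicosanoid metabolism, Mgst3 led. It was at 1927, 1273 and 1734 in WT and at 2050.5, 1765, 1298 and 2043 in null pools (log2 fold change 0.12, 95% interval -0.29 to 0.53). Mgst1 was at 610, 253 and 445 in WT and at 463, 607, 495 and 713 in null pools, so that only null 4 lay above WT 1 (0.45, SE 0.31, adjusted p = 0.656 in limma). Without WT 2 the log2 fold change of Mgst1 was 0.11, and with the cumulus marker mean in the model 0.0924. Mgst2 was low, at 47.4, 12.4 and 8.23 in WT and at 2.17, 15.4, 62.8 and 64.9 in null pools. It was highest in null 4, null 3 and WT 1. The same 3 pools led in the cumulus marker mean and in that of stroma, theca and endothelium.

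Pool by pool, the members varied more than the average gene, but by less when genes of like level were compared. Their median SD within groups was 0.58 on the log2 scale, against 0.34 for all genes tested. Under a mean of 1000 it was 0.80 for members and 0.71 for all such genes. At a mean of at least 1000 it was 0.196 and 0.159. In members between 10 and 100, leaving out Gsta3 and Gstm7, which were at 0 in a pool, the highest pool was a median of 13.6 times the lowest, between 100 and 1000 it was 3.18 times, and between 1000 and 10000 it was 1.61 times. Of the 44 tested members 17 were highest in null 4, 10 in null 3, 6 in WT 1, 5 in null 1, 4 in null 2, 2 in WT 2 and 0 in WT 3. The lowest value fell in WT 2 for 16 members and in null 3 for 9.

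For the 31 members under a mean of 1000 the median deviation from the mean of all pools was 0.52 in WT 1, 0.36 in null 3 and 0.43 in null 4, and between -0.22 and 0.14 in the other pools. The cumulus marker mean and that of stroma, theca and endothelium were highest in these 3 pools too. Cyp19a1, a cumulus marker, was lowest in them. These marker sets cannot be told apart here. For the 13 higher members the median deviation was 0.04, -0.11 and 0.13 in the same pools and -0.26 in WT 2. Null 4 and null 3 together held the highest value of most tested members. The matching counts and deviations over all genes were not taken, so this pattern cannot be called particular to the members.

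**Figure D4:**
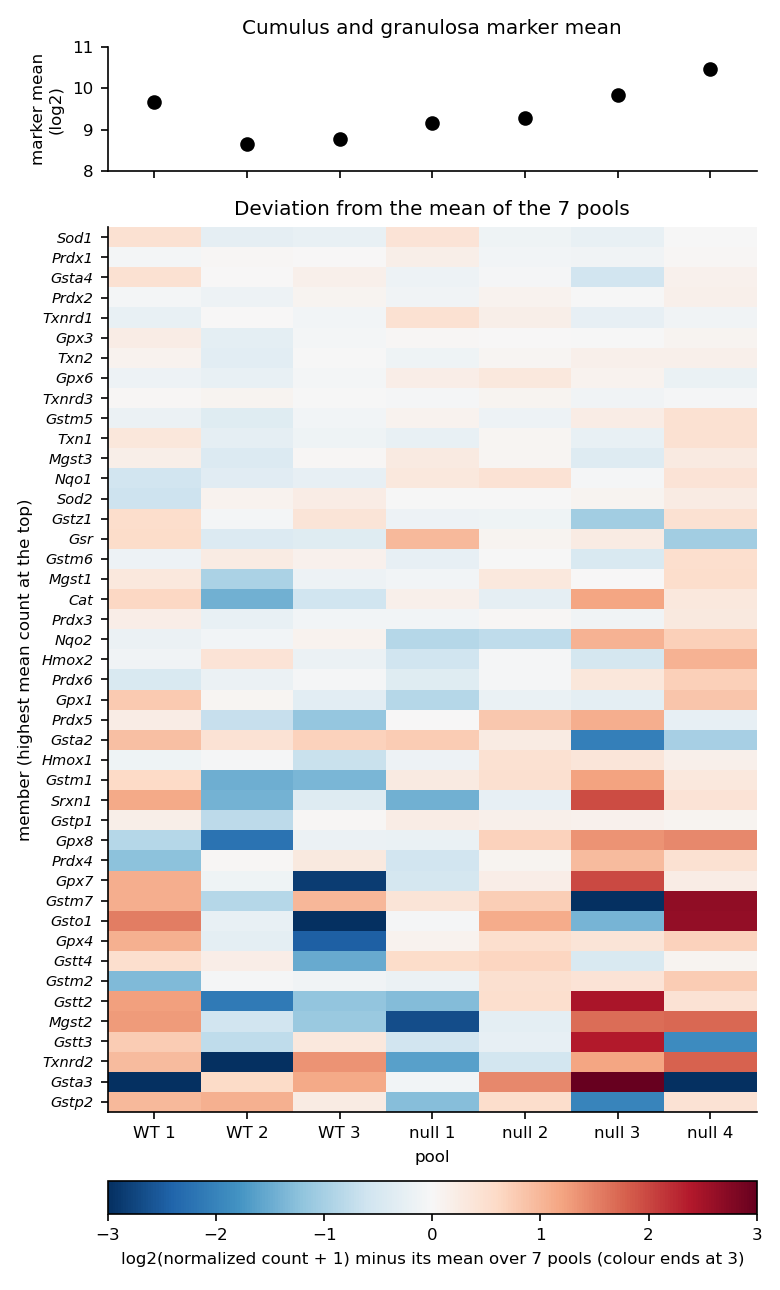
Top: mean of 28 cumulus and granulosa markers in each pool (log2). Bottom: log2(normalized count + 1) of each tested member minus its mean over the 7 pools, with members ordered by mean count. Members near the bottom (low counts) deviate most, with many higher values in WT 1, null 3 and null 4.

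Other genes of the redox network gave no call. Of 72 listed genes 67 were tested, 38 with positive and 29 with negative fold changes (median 0.06). None passed in limma, edgeR or DESeq2, and 6 of 67 (8.96%) had an unadjusted p under 0.05 in limma, all with higher values in null pools, against 10.2% of all genes. Groups did not overlap in 8.96% of them, against 9.91% of all genes. Both shares are near the background, and the genes named here are the pair with the smallest limma p in each list. Among regulators (13 tested) Mafg, a small MAF partner of NRF2, was at 717, 520 and 561 in WT and at 890, 682, 1042 and 899 in null pools, and null 2 overlapped WT 1 (log2 fold change 0.55, SE 0.226, adjusted p = 0.43 in limma). Nfe2l1, a relative of NRF2, stood at 24503 ± 914 and 28001 ± 1525, and no null pool was as low as the highest WT pool (0.19, SE 0.0803, adjusted p = 0.437 in limma).

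In glutathione supply (12 tested) Gclm, the modifier subunit of the enzyme that starts glutathione synthesis, was at 3152, 3287.5 and 3124 in WT and at 2887, 2803, 2663.5 and 2369 in null pools. All null pools lay below all WT pools (-0.25, SE 0.126, adjusted p = 0.52 in limma). Esd, which releases glutathione from its formyl conjugate, had -0.40 (SE 0.218). In NADPH supply (14 tested, none with an unadjusted p under 0.05) the cytosolic isocitrate dehydrogenase Idh1 had 0.37 (SE 0.218) and the mitochondrial NAD kinase Nadk2 -0.34 (SE 0.257). Among 19 glutaredoxins, thioredoxin-like proteins and methionine sulfoxide reductases, Txnl4a, a splicing factor with a thioredoxin fold, was at 355 ± 59.7 in WT and at 549 ± 79.3 in null pools (0.63, SE 0.266, adjusted p = 0.437 in limma). The mitochondrial methionine sulfoxide reductase Msrb2 was low in WT pools (3.16, 0 and 5.76) and in null pools (29.3, 16.4, 58.9 and 10.5), and the groups did not overlap. Among 9 genes of selenoprotein synthesis Sephs2, which makes selenophosphate, had 0.21 (SE 0.132) and the elongation factor Eefsec -0.17 (SE 0.148).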

How the data were processed

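RNA from 7 pools of ovulated oocytes (3 WT, 4 Nlrp2-null) had been amplified and sequenced. The deposited table holds a signal per gene: the normalized count, which is the read count scaled by each pool's size factor, as the steps of the values show. The submitters' processing notes list the aligners STAR 2.5.0a and TopHat2 2.0.9, the counters featureCounts 1.5.0-p1 and HTSeq, HOMER, and DESeq2 1.22.2 beside DESeq, with GRCm38/mm10 as build. Which of these made the table, and whether counting used strand, the sources used here do not give. Whole reads were recovered for 100% of values (tolerance 0.01 read), 71073973 to 96330083 per pool. A second table, of assembled transcripts, was not used here.

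Genotypes were compared on log2(normalized count + 1) with limma 3.58.1 (R 4.3.3; variance trend) for 15071 genes with a mean of at least 10, with Benjamini-Hochberg adjustment over all of them. Fold changes are on this scale, as differences between means of logs, and for low genes with uneven pools they can be larger than, or opposite to, those from recovered reads (Gpx4 0.97 in limma and 0.39 in edgeR, Gstm7 -0.72 and 0.60). edgeR 4.0.16 (quasi-likelihood, TMM) and DESeq2 1.42.0 were run on the recovered reads. DESeq2 left the adjusted p of 2080 genes, 6 of them members, undefined. Other alternatives were pseudocounts of 0.5 and 10, no filter and a filter at 100, equal medians, the library-number range, the cumulus marker mean, a replicate block, and leaving out pools. On simulated counts with 200 changed genes of 15071, limma recovered 16.4%, 50.7% and 57.6% of 1.5-fold, 2-fold and 4-fold changes, with 6 false among 89 calls. DESeq2 had 35 false among 134 calls. Exon lengths and shared 50-base stretches come from GENCODE M21 (GRCm38), and promoter windows from RefSeq (GRCm38.p6).

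Members and gene lists were chosen with earlier results of these data known. Members given in full are, per role, the 3 with the highest mean and the 3 with the smallest limma p, plus any called, and 2 genes per other list. The labels describe separate pools of mice. With 3 and 4 pools an exact test cannot go below p = 0.0286.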

Additional observations from a re-analysis of the deposited data

How the results depend on the processing

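No member was called by limma or edgeR under any setting run, and DESeq2 called 1 (Nqo1, log2 fold change 0.67). Of the 28 members given in full, 16 kept the sign of their log2 fold change in all settings run and 12 did not. Over all genes, limma called 10, against 6 with equal medians, 200 in DESeq2 and 1 with the replicate block. Without null 3 and null 4 it called 0 of all genes, and 3 members had an unadjusted p under 0.05. Leaving out 1 pool at a time gave 2 (without null 3) to 16 (without null 1) called genes, with 4 without WT 2, 5 without WT 3 and 4 without null 4. Reversed log2 fold changes follow, and the cause was not tested. With the cumulus marker mean these were Gpx3 -0.0395, Mgst2 -1.455, Nqo2 -0.43, Prdx3 -0.10, Sod1 -0.0698 and Txn2 -0.0191. With the replicate block, which leaves null 4 without a partner and so without weight, they were Mgst2 -0.28, Nqo2 -0.14 and Prdx3 -0.0083. Without null 3 and null 4 they were Mgst2 -1.33 and Nqo2 -0.75, with the library-number range Nqo2 -0.093, and with equal medians, which shift fold changes by -0.06, Prdx1 -0.0438 and Sod1 -0.0382. Leaving out 1 pool at a time gave ranges of -0.62 to 0.0010 for Gpx1, -0.0486 to 0.21 for Gpx3, -0.0194 to 1.95 for Gpx7, -0.16 to 0.51 for Gsr, -0.28 to 1.175 for Mgst2, -0.0544 to 0.27 for Mgst3, -0.24 to 0.39 for Nqo2, -0.0429 to 0.0548 for Prdx1, -0.0183 to 0.19 for Prdx3, -0.11 to 0.25 for Sod1 and -0.0938 to 0.33 for Sod2. Members that kept their sign but moved by over 1.5 times had ranges of 0.34 to 1.375 for Cat, -0.46 to -0.23 for Gsta4, 0.955 to 1.99 for Gstm1, -0.72 to -0.22 for Gstz1, 0.29 to 0.61 for Hmox1, 0.11 to 0.74 for Mgst1, 0.0158 to 0.14 for Prdx2, 0.0635 to 0.83 for Prdx4, 0.21 to 0.57 for Prdx6, 0.0094 to 0.22 for Txn2, 0.0352 to 0.27 for Txnrd1 and -0.0972 to -0.035 for Txnrd3. Same-numbered pools correlated at -0.36, 0.16 and -0.03 in their deviations from group means, and none correlated best with its own number, so the numbers were not treated as pairs.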
